A study of Mus musculus with 8 samples.

Results

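Nuclear regulators of mitochondrial metabolism are the transcription factors and coactivators in the cell nucleus that set the expression of genes for fatty acid oxidation, the respiratory chain and mitochondrial DNA. The 10 genes described here are a named set: the nuclear receptors Ppara, Ppard, Rxra, Esrra and Esrrg, the coactivators Ppargc1a and Ppargc1b, and the factors Nrf1, Gabpa and Tfam. All 10 were among the 37982 genes of the table that the authors deposited, and 8 of them have an estimate in every genotype group. RNA was sequenced from heart ventricles of C57BL/6 mice at postnatal day 7, with the atria cut away. The groups were triple mutant hearts (3 samples), double mutant hearts (3 samples) and wild type hearts (2 samples). As known from the study, the double mutants carried heterozygous missense alleles of Mkl2 and Myh7, and the triple mutants carried the same alleles together with one of Nkx2-5. The labels name the groups mkmyn, mkmy and wt and give neither the alleles nor the sex of the pups. Such alleles are present in every cell of the animal, so no promoter restricts them to one cell type. The study set triple mutant against wild type hearts to find genes altered in the diseased state, and triple against double mutant hearts to find genes that the added Nkx2-5 allele alters. Double mutant against wild type is the third comparison that the groups imply.

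PPARs are receptors for fatty acids and their derivatives. They bind DNA together with a retinoid X receptor and switch on genes of fatty acid uptake and oxidation, the main fuel route that the heart takes up after birth. The estrogen-related receptors bind single receptor sites without a known natural hormone, and the PGC-1 coactivators, encoded by Ppargc1a and Ppargc1b, dock on both receptor families. NRF1 and the ETS factor GABPA act on promoters of nuclear genes for respiratory chain subunits and for TFAM, which packages mitochondrial DNA and starts its transcription.

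Promoter sequences are shown for the 3 genes of the set whose promoters hold the motif of NRF1 or of the ETS factor GABPA: Ppara, the one gene with a called difference, Tfam, which had the largest positive log2 fold change against wild type among the 8 genes with an estimate, and Gabpa, whose own product binds the ETS motif. They come from RefSeq on GRCm38.p6 and give the 250 bases before the annotated start, 5′ to 3′ on the strand of the gene. Capitals mark the NRF1 motif in Ppara and the ETS motif CCGGAAG, or its reverse complement, in Tfam and Gabpa.
Ppara, chr15:85735526-85735775, plus strand: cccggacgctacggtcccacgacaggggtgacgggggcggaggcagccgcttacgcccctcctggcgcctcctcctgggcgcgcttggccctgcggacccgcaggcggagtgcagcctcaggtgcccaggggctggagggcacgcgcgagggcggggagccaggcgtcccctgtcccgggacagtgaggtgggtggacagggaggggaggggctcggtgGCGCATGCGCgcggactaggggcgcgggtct
Tfam, chr10:71238045-71238294, minus strand: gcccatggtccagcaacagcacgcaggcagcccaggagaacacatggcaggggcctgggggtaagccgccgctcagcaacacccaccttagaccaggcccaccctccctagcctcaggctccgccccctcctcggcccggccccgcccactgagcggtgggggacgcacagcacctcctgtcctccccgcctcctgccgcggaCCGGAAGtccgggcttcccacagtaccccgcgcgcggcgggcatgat
Gabpa, chr16:84834874-84835123, plus strand: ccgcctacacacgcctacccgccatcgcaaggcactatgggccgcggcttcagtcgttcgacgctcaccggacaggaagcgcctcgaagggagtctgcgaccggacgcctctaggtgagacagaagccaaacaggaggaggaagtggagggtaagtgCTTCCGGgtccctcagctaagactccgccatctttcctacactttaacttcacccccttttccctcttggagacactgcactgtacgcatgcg
The NRF1 motif of Ppara lay at positions -31 to -22 from the start and reads the same on both strands. The ETS motif lay at positions -47 to -41 in Tfam and, on the opposite strand, at -93 to -87 in Gabpa. Of 32851 promoter windows of the same length, 3.74% held the NRF1 motif and 6.91% the ETS motif on either strand. The RefSeq table matched 9 of the 10 genes with 14 start sites, and none of the 14 windows held the ERR element TNAAGGTCA, the DR1 element of paired receptors or a CArG box, the site of serum response factor. The NKX2-5 motif TNAAGTG stood in the Gabpa window, on the reverse strand at -54 to -48, against 10.1% of all windows. The nuclear receptor motif AGGTCA stood at 2 places in 1 Rxra window, at -48 to -43 and, on the reverse strand, at -87 to -82, against 14.02% of all windows. The cAMP response motif TGACGT stood in the Ppargc1a window, against 6.47% of all windows. None of these matches overlapped another of the motifs named. A match describes the letters of a window and shows no binding.

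All levels below are FPKM, fragment counts scaled to transcript length and library size. The authors' deposited table holds 1 FPKM per gene and group, so the spread between hearts is not in the values, and differences are called where the authors' Cuffdiff test gave a q value under 0.05. Nothing in the labels says which samples came from separate litters. The p values are those of the Cuffdiff model for the libraries that the authors entered. How far they reflect the spread between hearts cannot be checked without values per sample. Intervals on the log2 scale are those implied by the deposited p value under a normal distribution.

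Ppara encodes PPAR-alpha, the main PPAR of fatty acid oxidation in heart muscle. It stood at an FPKM of 7.37 in triple mutant, 9.68 in double mutant and 12.3 in wild type ventricles in the authors' deposited table. The triple mutant level was thus the lowest, and the double mutant level lay between the others. The difference of triple mutant from wild type passed, at 1.67-fold lower (log2 fold change -0.74, interval -1.15 to -0.34, q = 0.0244) in the authors' deposited table. It was the only call among the 24 tests of the set, so 1 of 8 tested regulators was called lower and none higher here. The interval of this Ppara difference depends on its source. Taken from the deposited test score under a normal distribution, the 95% interval would be wider and would include no change. Of all 12986 genes tested 1.52% were called, 0.362% lower and 1.16% higher. Neither step between neighbouring groups passed in the authors' deposited table. Triple against double mutant gave a log2 fold change of -0.39 (interval -0.77 to -0.01, q = 0.382), and double mutant against wild type gave -0.35 (interval -0.71 to 0.01, q = 0.431), in the authors' deposited table. Among all genes tested for the triple mutant against wild type, 3.5% had a log2 fold change as low as that of Ppara or lower. Ppara (ENSMUSG00000022383, mm9 chromosome 15, 85565413 to 85633249) shares its locus with no other listed gene.

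**Figure D1:**
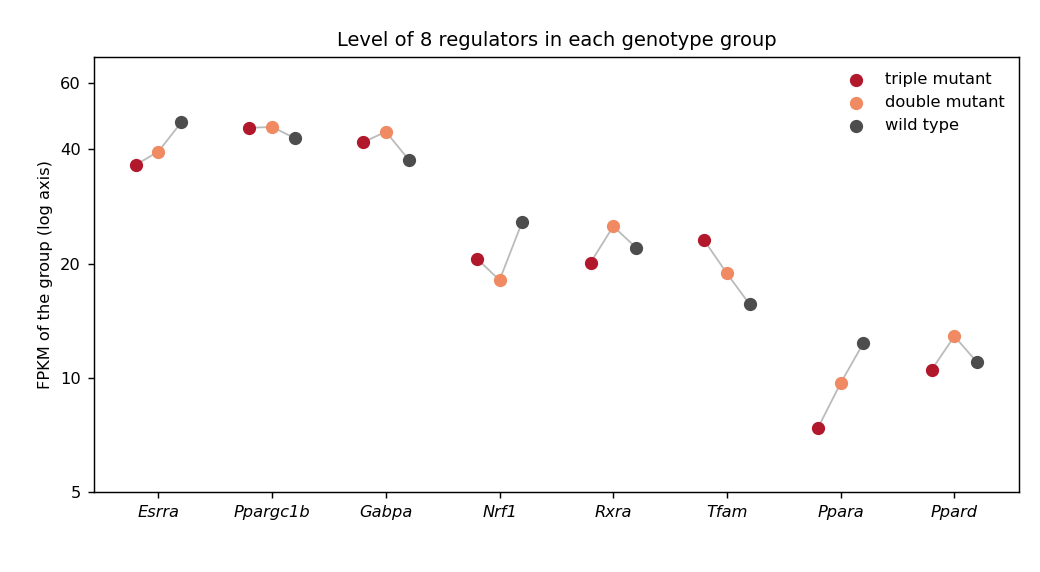
FPKM (log axis) of the 8 regulators with an estimate in every group, ordered by their wild type level, with triple mutant, double mutant and wild type from left to right within each gene and 1 point per group (no error can be drawn from 1 value per group). Ppara stands at 7.37, 9.68 and 12.3 in that order, and the points of Ppargc1b, at 45.6, 45.8 and 42.8, lie close together.

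Ppard encodes PPAR-delta, the PPAR that is made in most tissues. Ppard (mm9 chromosome 17, 28369699 to 28438414) stood at 10.5 in triple mutant, 12.9 in double mutant and 11.0 in wild type ventricles in the authors' deposited table, and no comparison passed. Against wild type the triple mutant value differed by a log2 fold change of -0.07 (interval -0.40 to 0.27, q = 0.957) in the authors' deposited table. In FPKM the Ppard level was 1.42 times that of Ppara in the triple mutant, 1.33 times in the double mutant and 0.89 times in wild type. The order of these PPAR genes thus differed between both mutants and wild type, a difference for which no test could be made.

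Rxra encodes the retinoid X receptor that pairs with PPARs and with other receptors. Rxra (mm9 chromosome 2, 27531960 to 27618477) stood at 20.1 in triple mutant, 25.1 in double mutant and 22.0 in wild type ventricles in the authors' deposited table. The double mutant was the highest, and its distance from the triple mutant was a log2 fold change of -0.32 (interval -0.60 to -0.04, unadjusted p = 0.0245, q = 0.292) in the authors' deposited table, which did not pass. The other retinoid X receptor genes were not called either. Rxrg, the form typical of muscle and brain, stood at 3.68 in triple mutant, 6.23 in double mutant and 3.77 in wild type ventricles in the authors' deposited table. Its q value in the authors' deposited table was 0.0511 for triple against double mutant and 0.0695 for double mutant against wild type, just outside the threshold.

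The coactivator genes gave 1 estimate between them. Ppargc1b (mm9 chromosome 18, 61457790 to 61560085, a locus shared with AC116595.1), which encodes PGC-1-beta, stood at 45.6 in triple mutant, 45.8 in double mutant and 42.8 in wild type ventricles in the authors' deposited table. These levels span 1.07-fold, the narrowest range of the 8 regulators, and the interval of triple mutant against wild type reached from -0.24 to 0.43 in log2 fold change. Ppargc1a, which encodes PGC-1-alpha, carries the HIDATA status in each comparison, which Cuffdiff gives where a locus has more fragments than it will fit. The authors' deposited table lists it at 0 in triple mutant and wild type ventricles and at 69.2 in the double mutant, but each row has the failed status, so its level counts as not measured. Esrrg, the estrogen-related receptor gene of energy-demanding tissues such as heart, is listed at 0 in every group under the same status. The failed estimates thus cover PGC-1-alpha, the coactivator best known for mitochondrial biogenesis, and the gamma receptor.

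Esrra encodes ERR-alpha, a partner of the PGC-1 coactivators on genes of the respiratory chain. Esrra (mm9 chromosome 19, 6981187 to 6996303) stood at 36.4 in triple mutant, 39.5 in double mutant and 47.1 in wild type ventricles in the authors' deposited table, the highest wild type level of the 8 regulators with an estimate. The order was that of Ppara, but the error was wider: triple mutant against wild type gave a log2 fold change of -0.37 (interval -1.12 to 0.37, q = 0.813) by the authors' deposited table. The Esrra locus holds other genes as well, among them Prdx5, a peroxidase of mitochondria, and the methyltransferase partner Trmt112. Prdx5 stood at 60.7 in triple mutant, 69.6 in double mutant and 46.2 in wild type ventricles in the authors' deposited table and was not called. Since reads of such neighbours can be split between them, the Esrra level is uncertain. Esrrb, the estrogen-related receptor best known from stem cells, stood at 8.09 in triple mutant, 7.94 in double mutant and 11.0 in wild type ventricles in the authors' deposited table. It was not called in the authors' deposited table (q = 0.136 in triple mutant and 0.0999 in double mutant, each against wild type).

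Nrf1 encodes nuclear respiratory factor 1, which is a different gene from Nfe2l1 although both have been called NRF1. Nrf1 (mm9 chromosome 6, 29997988 to 30103458, a region it shares with a 7SK locus) stood at 20.6 in triple mutant, 18.1 in double mutant and 25.8 in wild type ventricles in the authors' deposited table. The wild type level was the highest and the mutant levels lay closer to each other. Double mutant against wild type gave a log2 fold change of -0.51 (interval -0.89 to -0.14, unadjusted p = 0.0073), yet its q value of 0.159 in the authors' deposited table did not pass. The triple mutant against wild type gave -0.32 (interval -0.68 to 0.03, q = 0.484) in the authors' deposited table.

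Gabpa encodes the DNA-binding subunit of GABP, also known as nuclear respiratory factor 2. Gabpa (mm9 chromosome 16, 84828111 to 84864024) stood at 41.7 in triple mutant, 44.5 in double mutant and 37.6 in wild type ventricles in the authors' deposited table, with no comparison passing. Its locus also holds Atp5j, which encodes a subunit of ATP synthase and lies next to Gabpa. As at the Esrra locus, reads of such neighbours can be split between them, so the Gabpa level is uncertain. Atp5j stood at 233.9 in triple mutant, 303.1 in double mutant and 209.4 in wild type ventricles in the authors' deposited table, so both genes had their highest level in the double mutant and their lowest in wild type. Atp5j was not called (q = 0.355 for double mutant against wild type in the authors' deposited table).

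Tfam encodes the mitochondrial transcription factor A. Tfam (mm9 chromosome 10, 70688212 to 70701028) stood at 23.0 in triple mutant, 18.8 in double mutant and 15.6 in wild type ventricles in the authors' deposited table. Its order was the reverse of that of Ppara, with the double mutant again in between. Triple mutant against wild type gave a log2 fold change of 0.56 (interval 0.04 to 1.08, unadjusted p = 0.0336), and its q value of 0.337 in the authors' deposited table did not pass. The level of Tfam was 1.12 times that of Nrf1 in the triple mutant, 1.04 times in the double mutant and 0.605 times in wild type. As with the PPAR genes, no test of this ratio could be made.

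**Figure D2:**
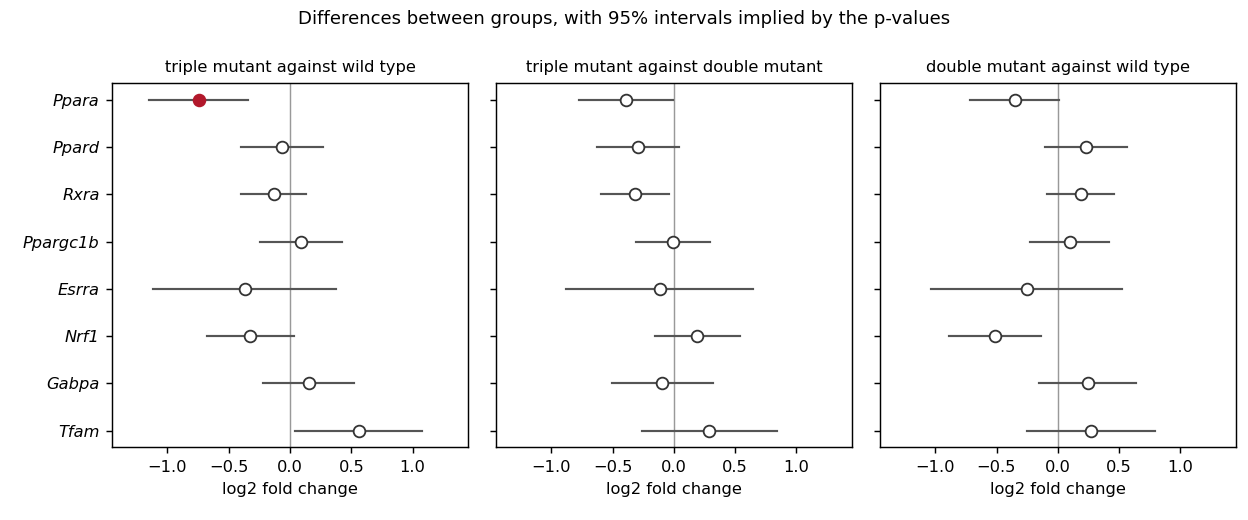
Log2 fold change of the 8 regulators in each comparison, with the 95% interval implied by the deposited p value. The filled point is the 1 value with a q value under 0.05, Ppara in triple mutant against wild type, and Esrra has the widest intervals.

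Among the 8 regulators with an estimate, the levels spread over less than 1.5-fold between groups in 7 and over 1.67-fold in Ppara. At an unadjusted p under 0.05 stood 2 of 8 in triple mutant against wild type (12.1% of all genes), 2 of 8 in triple against double mutant (8.45%) and 1 of 8 in double mutant against wild type (16.3%). None of 8 was called in triple against double mutant, where 1.25% of all genes were called by Cuffdiff, 0.704% higher and 0.547% lower. None of 8 was called in double mutant against wild type either, where 2.65% were called, 1.89% higher and 0.767% lower. The median log2 fold change of the 8 was -0.10 in triple mutant against wild type, with 3 above 0 and 5 below. It was -0.11 in triple against double mutant (2 above and 6 below) and 0.14 in double mutant against wild type (5 above and 3 below). The median of all tested genes was -0.0026, -0.0011 and -0.0030 in the same order of comparisons. These comparisons share groups, so their values are not independent of each other.

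In wild type Esrra, Ppargc1b and Gabpa stood between 37.6 and 47.1, Nrf1, Rxra and Tfam between 15.6 and 25.8, and Ppara and Ppard at 12.3 and 11.0. Levels of different genes could not be tested against each other, since no error is given for a level. Among the 12399 genes tested in all 3 comparisons, Ppara stood at the percentile 38.5 of levels in the triple mutant, 47.3 in the double mutant and 55.4 in wild type. Tfam stood at 74.4, 69.0 and 63.3 in the same order of groups. The genes most like Ppara over the 3 groups, by the distance of both log2 fold changes against wild type among 8535 other genes, were Pfkfb2, Scarna6 (a small RNA with a q value of 0.962 in triple mutant against wild type) and Mtrf1l, at distances of 0.03, 0.06 and 0.06. Pfkfb2, for example, stood at 10.7 in triple mutant, 13.7 in double mutant and 17.8 in wild type ventricles in the authors' deposited table.

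The 11 tested genes counted here as partners of these regulators include Nfe2l1, which has shared only a name with Nrf1. Of these 11, 1 was called in any comparison. Shares of all genes called were 1.52% in triple mutant against wild type, 1.25% in triple against double mutant and 2.65% in double mutant against wild type. Below 0 lay 9 of 11 in triple mutant against wild type, 8 of 11 in triple against double mutant and 5 of 11 in double mutant against wild type. The called gene was Thrb, a thyroid hormone receptor gene, which rose 1.60-fold to 3.50 in the double mutant, against 2.19 in wild type (q = 0.0150 in the authors' deposited table), while the triple mutant stood at 2.36. Thrb shares its locus with a 7SK locus. By unadjusted p under 0.05 the partners numbered 3 in triple mutant against wild type, 3 in triple against double mutant and 4 in double mutant against wild type. Of all genes, 12.1%, 8.45% and 16.3% had such a p value in that order. The partners had a median log2 fold change of -0.09 in triple mutant against wild type, -0.23 in triple against double mutant and 0.10 in double mutant against wild type. Pparg, the PPAR gene of fat cells, stood at 4.12 in triple mutant, 4.99 in double mutant and 6.22 in wild type ventricles in the authors' deposited table, the same order as Ppara, and was not called (q = 0.118 in triple mutant against wild type). None of 27 tested coregulators, among them the deacetylase gene Sirt1, the kinase gene Prkaa2 and the corepressor gene Ncor1, was called by Cuffdiff in any comparison, and 0, 1 and 1 had an unadjusted p under 0.05 in triple mutant against wild type, triple against double mutant and double mutant against wild type. Their medians were -0.02, -0.04 and 0.05 in the same order of comparisons, but 0.04, -0.07 and 0.10 when centred on genes of like transcript length, so the sign of the first turned.

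The genes counted here as mitochondrial DNA machinery include some that neither copy nor transcribe it, such as Lonp1. They gave no Cuffdiff call among 14 tested, and 1 (Lonp1), 0 and 0 had an unadjusted p under 0.05 in the same order of comparisons. Of all genes, 1.52%, 1.25% and 2.65% were called and 12.1%, 8.45% and 16.3% had such a p value. In triple mutant against wild type 12 of the 14 were above 0 (median 0.18), in triple against double mutant 8 were (median 0.06), and in double mutant against wild type 11 were (median 0.10). Centred on genes of like transcript length, the median in triple mutant against wild type was 0.10 in place of 0.18. The protease gene Lonp1, whose product degrades TFAM, stood at 27.2 in triple mutant, 23.6 in double mutant and 21.1 in wild type ventricles in the authors' deposited table, the order seen for Tfam. It was not called (unadjusted p = 0.0075, q = 0.162 for triple mutant against wild type in the authors' deposited table). Polrmt, the mitochondrial RNA polymerase gene, stood at 7.08, 6.24 and 5.92 in the same order of groups in the authors' deposited table and was not called.

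**Figure D3:**
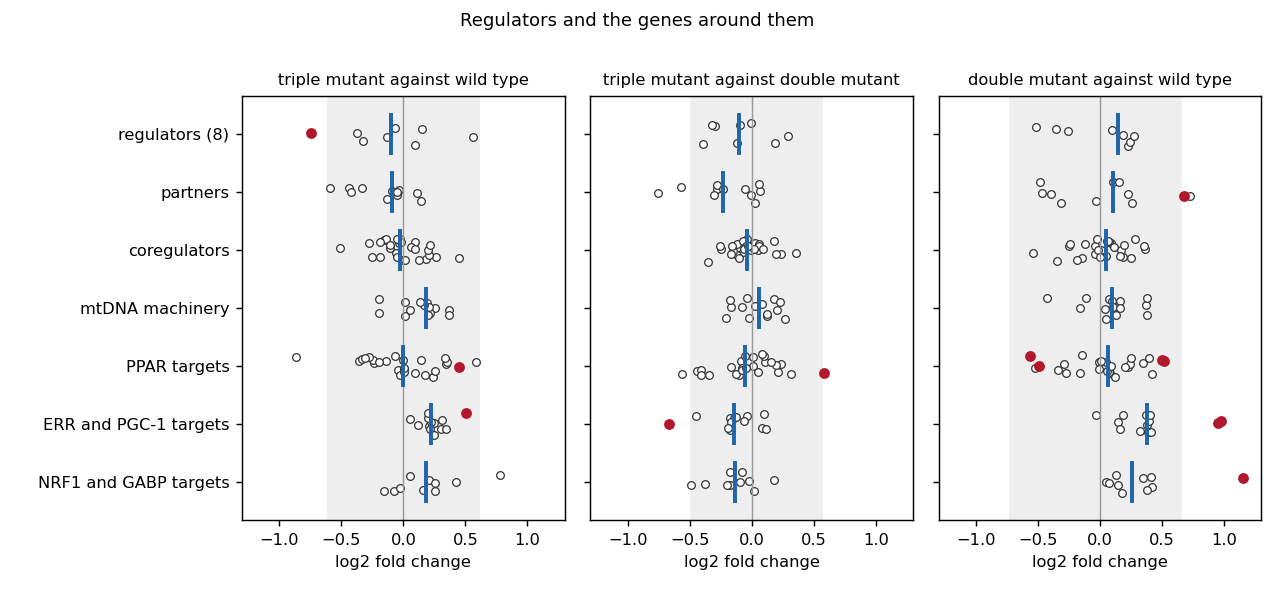
Log2 fold change of each tested gene in the regulator set and in 6 lists around it, with the list median as a blue bar, genes at a q value under 0.05 as filled points and the range from the 5th to the 95th percentile of all tested genes shaded. PPAR targets scatter on both sides of 0 in each comparison, and all 13 tested ERR and PGC-1 targets lie above 0 in triple mutant against wild type.

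Genes known as PPAR targets changed in both directions. Of 26 tested, 1 rose and none fell in triple mutant against wild type, 1 rose and none fell in triple against double mutant, and 2 rose and 2 fell in double mutant against wild type. The median log2 fold changes were 0.00, -0.05 and 0.06 in that order of comparisons, and -0.01, -0.03 and 0.08 when centred on genes of like transcript length. The calls compare with 1.52%, 1.25% and 2.65% of all genes, and 5, 6 and 7 of the 26 had an unadjusted p under 0.05, against 12.1%, 8.45% and 16.3% of all genes. Slc25a20, the carnitine-acylcarnitine carrier of the inner mitochondrial membrane, stood at 94.5 in triple mutant, 98.1 in double mutant and 69.3 in wild type ventricles in the authors' deposited table. It rose in both mutants against wild type, 1.36-fold in the triple (q = 0.0398) and 1.42-fold in the double mutant (q = 0.0114), in the authors' deposited table. It was not called in triple against double mutant.

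The other called targets had a call in double mutant against wild type. Cpt2, the inner membrane carnitine palmitoyltransferase, rose 1.43-fold in the double mutant against wild type (q = 0.0479), with 361.0 in triple mutant, 405.9 in double mutant and 283.8 in wild type ventricles in the authors' deposited table. Pdk4, the kinase that shuts the pyruvate dehydrogenase complex, stood at 140.5 in triple mutant, 112.5 in double mutant and 166.1 in wild type ventricles in the authors' deposited table. It fell in the double mutant, 1.48-fold below wild type (q = 0.0066) in the authors' deposited table. Acot1, a cytosolic acyl-CoA thioesterase, stood at 48.1 in triple mutant, 32.0 in double mutant and 45.1 in wild type ventricles in the authors' deposited table. It fell 1.41-fold in double mutant against wild type (q = 0.0356) and rose 1.5-fold in triple against double mutant (q = 0.0066) in the authors' deposited table. The muscle carnitine palmitoyltransferase gene Cpt1b had the lowest log2 fold change of the tested targets in triple mutant against wild type, at -0.87, with 68.2 in triple mutant, 86.6 in double mutant and 124.3 in wild type ventricles in the authors' deposited table. It was not called by Cuffdiff in the authors' deposited table (q = 0.115). Its locus is shared with Chkb, so its level is uncertain. The fatty acid uptake genes Cd36 and Fabp3 and the oxidation genes Acadl and Hadha have failed estimates and were not measured.

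**Figure D4:**
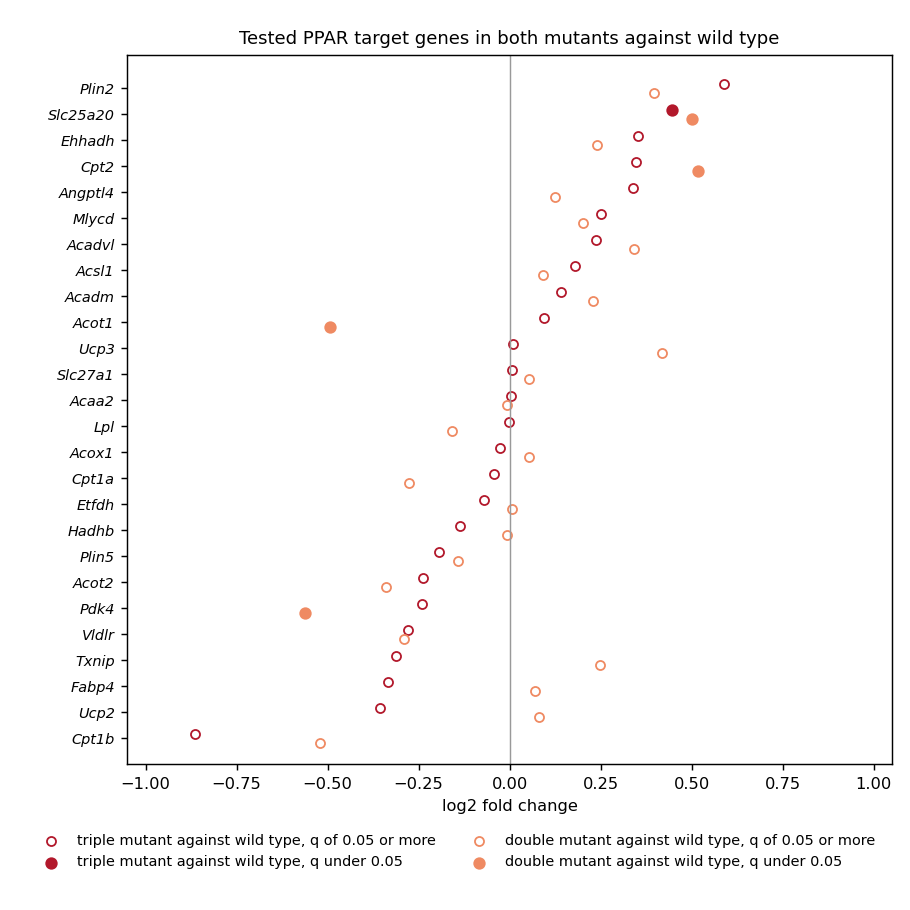
Log2 fold change of the 26 tested PPAR target genes in triple mutant and in double mutant, each against wild type, ordered by the triple mutant value and with filled points at a q value under 0.05. Slc25a20 is filled in both comparisons, and Pdk4 and Acot1 are filled below 0 in the double mutant.

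Targets of ERR and the PGC-1 coactivators had mostly positive log2 fold changes in both mutants against wild type, and few were called. Of 20 listed, 6 had failed estimates and 1 was not tested. All 13 tested were above 0 in triple mutant against wild type (median 0.22, 1 called higher) and 12 of 13 in double mutant against wild type (median 0.38, 2 called higher). In triple against double mutant 10 of 13 were below 0 (median -0.15, 1 called lower). Centred on genes of like transcript length, these medians were 0.21, 0.31 and -0.12 in the order just given. An unadjusted p under 0.05 was found for 2 of 13 in triple mutant against wild type, 2 in triple against double mutant and 7 in double mutant against wild type. Of all genes, 12.1%, 8.45% and 16.3% had such a p value, and 1.52%, 1.25% and 2.65% were called, in that order of comparisons. Ckmt2, the mitochondrial creatine kinase of striated muscle, stood at 127.7 in triple mutant, 174.3 in double mutant and 90.0 in wild type ventricles in the authors' deposited table. It rose 1.42-fold and 1.94-fold against wild type in triple and double mutant (q = 0.0066 each) in the authors' deposited table, and its locus is shared with another listed gene. Cox8b, a cytochrome oxidase subunit of heart and skeletal muscle, fell 1.58-fold in triple against double mutant (q = 0.0066 in the authors' deposited table), at 1052 in triple mutant, against 1666 in the double mutant. It stood at 847.5 in wild type and rose 1.97-fold in double mutant against wild type (q = 0.0066) in the authors' deposited table. Of 13 listed targets of NRF1 and GABP, 2 had failed estimates and 1 was not tested. Of the 10 tested, Cox5b alone was called, 2.23-fold higher in double mutant against wild type (q = 0.0066 in the authors' deposited table). All 10 were above 0 in that comparison (median 0.26, or 0.16 when centred on genes of like transcript length). In triple mutant against wild type 7 of 10 were above 0 (median 0.18, or 0.11 when so centred), and in triple against double mutant 8 were below 0 (median -0.13). An unadjusted p under 0.05 was found for 1, 1 and 4 of the 10 in triple mutant against wild type, triple against double mutant and double mutant against wild type, beside the same shares of all genes. These counts come from lists assembled with earlier results of these data known, and the lists overlap.

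The composition of the samples bears on each of these levels, and in whole ventricle fewer cells of a type and less RNA per cell cannot be told apart. All 8 heart muscle markers sought, Tnnt2 and Myh6 among them, have failed estimates for too many fragments, so the muscle share could not be measured. The skeletal muscle markers summed to an FPKM of 0.128 in triple mutant, 0.0757 in double mutant and 0.136 in wild type, and the 3 atrial markers to 10.2, 8.09 and 7.61 in the same order. Nearly all of the atrial sum was Myl4, at 9.88 in triple mutant, 7.95 in double mutant and 7.30 in wild type (not called, q = 0.645 for triple mutant against wild type in the authors' deposited table), while Myl7 was at 0.136, 0.137 and 0.130. The 8 endothelial markers summed to 554.9 in triple mutant, 624.4 in double mutant and 651.7 in wild type, and 7 of 8 were below 0 in triple mutant against wild type with none called. The 7 fibroblast markers with an estimate summed to 553.6, 681.8 and 594.0, the 7 mural cell markers to 586.2, 580.4 and 555.5, and the 7 macrophage markers to 32.3, 34.3 and 32.9, in the same order of groups. All 7 fibroblast markers were below 0 in triple against double mutant (median -0.31). All 7 were above 0 in double mutant against wild type (median 0.10), and 6 were below 0 in triple mutant against wild type (median -0.10). By Cuffdiff 5, 2 and 1 of them had an unadjusted p under 0.05 in that order of comparisons, against 8.45%, 16.3% and 12.1% of all genes. None of the fibroblast markers was called. Of the mural markers, Acta2 was called 1.5-fold higher in triple against double mutant (q = 0.0066 in the authors' deposited table) and Kcnj8 was called lower, at 15.4 in triple mutant and 23.1 in double mutant. No other cell type marker was called in any comparison. The erythroid markers summed to 350.0, 368.0 and 335.8 and the brown fat markers, with Ucp1 at or near 0, to 22.0, 22.5 and 23.5. The part of these cell types in the level of Ppara was not tested. The Y-linked genes summed to 54.2 in triple mutant, 73.7 in double mutant and 21.9 in wild type, and Xist stood at 88.2 in triple mutant and 1.21 in double mutant in the authors' deposited table, with a failed estimate in wild type. Of the Y-linked genes, Cuffdiff called Ddx3y higher in both mutants against wild type (q = 0.0066 each). It called Uty higher in double mutant against wild type (q = 0.0066). Kdm5d and Eif2s3y were also higher in both mutants than in wild type but were not called. Xist was called higher in triple against double mutant (q = 0.0066). Sex and genotype cannot be told apart here. Nkx2-5 stood at 55.2 in triple mutant, 53.1 in double mutant and 43.6 in wild type ventricles and Mkl2 at 26.0, 30.6 and 30.9 in the authors' deposited table, with no call, while Myh7 has a failed estimate. By transcript length, in 8 bins, the median log2 fold change of triple mutant against wild type ran from 0.09 for the shortest transcripts to -0.07 for the longest, and the bin of Ppara had a median of -0.0030. Minus that median the value of Ppara was again -0.74.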

How the data were processed

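RNA of 8 mouse ventricle samples was made into stranded total RNA libraries, per the labels' protocols. The submitters' processing notes name mm9, Cuffdiff 2.2.1, Cufflinks 2.2.1, STAR 2.5.2 and CASAVA 1.8. The annotation they counted on is not given in the sources used here, nor is the normalization. Per gene and group the authors deposited 1 FPKM, with a log2 fold change, a test score, a p-value and a q-value for each comparison, per the file headers. Depth per sample is unknown, and no test over samples could be made. The deposited log2 fold changes equal the log2 ratio of the FPKM values, and one Benjamini-Hochberg adjustment of all 3 comparisons gives the deposited q-values. The deposited score does not give the deposited p-value under a normal distribution. This mismatch includes the called difference of Ppara, whose interval from the score would include no change. Intervals were taken from the p-value and not, as planned, from the score. The code of this conversion and of the adjustment was run on simulated normal values. Their p values came from the same normal formula, so that run cannot show whether the intervals suit the deposited p values. Rows with status HIDATA (2036 rows of 709 genes) count as missing.

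Symbols of 176 of 179 listed genes matched the table. A target gene that is not reported here was left out of its list. Start coordinates in mm9 are those of the file plus 1. Transcript length is that of the longest GENCODE M21 transcript by Ensembl ID. Promoters were searched on both strands in the 250 bases before each RefSeq start. Besides the regulators, genes were named if called in a list with an FPKM of at least 1 (up to 3 per direction, list and comparison), if among the 3 closest to a called regulator (FPKM of at least 5), or as the mutated, sex-linked or 2 highest marker genes of a list, the last given here as sums. Others in the text were chosen after their values were seen. The members and lists were chosen with earlier results of these data known. Values were computed with Python 3.11.15, pandas 2.3.3 and scipy 1.17.1. Alternatives were other adjustments and thresholds, an FPKM minimum, a pseudocount and other centrings.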

Additional observations from a re-analysis of the deposited data

How the results depend on the processing

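The call of Ppara in triple mutant against wild type held when q values were adjusted within the comparison and among genes with an FPKM of at least 5. A threshold of 0.1 is looser, so this call could not be lost under it. With a Bonferroni adjustment the number of regulators called in triple mutant against wild type was 0. The lowest p value in the table is 5e-05, so no gene can pass that adjustment. In the other comparisons the number called was 0 under each alternative. Of the 24 log2 fold changes of the regulators, 1 changed sign: Ppargc1b in triple against double mutant was -0.01 as deposited, 0.0018 when centred on genes of like transcript length and 0.015 when centred on genes of like FPKM. Mkl2 in double mutant against wild type was -0.01 as deposited and 0.087 when centred on transcript length. Neither gene was called. For the partner genes the number called in double mutant against wild type was 1, against 2 when adjusted within the comparison, 3 at a threshold of 0.1 and 0 among genes with an FPKM of at least 5 or after Bonferroni. The FPKM minimum leaves out Thrb, the called partner, at 3.50 in double mutant and 2.19 in wild type, so its call could not be kept there. In triple against double mutant the number of partners called was 0, against 2 at a threshold of 0.1 and 1 among genes with an FPKM of at least 5. No paired analysis was possible because the table holds no values per sample, and leaving out replicates was not run for the same reason.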
